A study of Mus musculus with 6 samples.

Results

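The 36 genes described here encode deubiquitinases (DUBs) of mouse, or relatives with the same folds, from outside the ubiquitin-specific protease (USP) class, together with the SUMO and NEDD8 proteases of the Senp family. They were taken by gene name, the rule uses no measured value, and they are 36 of the 18169 genes in the deposited table. By family they are 14 OTU proteases, 4 ubiquitin C-terminal hydrolases (UCH), 3 Josephins, 7 members with a JAMM or related MPN fold, *Cyld*, and 7 Senp proteases. RNA came from Hepa 1–6 cells, a hepatoma line of mouse, in 3 libraries labelled Shh (Sonic hedgehog) and 3 labelled vehicle. No other treatment or allele is named for either group, the Shh dose and duration of these libraries are not given in the labels, and all libraries are of 1 line. The study used the comparison to look for a DUB that acts in hepatocytes given Shh.

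Ubiquitin is joined to lysines of other proteins, singly or in chains, and DUBs cut it off again or trim the chains. Most are cysteine proteases, as the OTU, UCH and Josephin enzymes and *Cyld* are, while the active JAMM enzymes hold a zinc ion in place of the catalytic cysteine. Senp proteases are also cysteine proteases, but they mature and remove SUMO, and in the case of *Senp8* the related modifier NEDD8.

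The libraries summed to 20253781 to 20291075 estimated counts in Shh and 20278619 to 20335463 in vehicle, and 12286 genes passed the expression filter of edgeR, 34 of the 36 members among them. Levels are given as CPM, the counts of a gene scaled by library total and TMM normalization. Shh replicate 2 stood apart. The counts of 2 Shh libraries differed with a chi-square per degree of freedom between 4.07 and 9.11, against 1.71 to 2.30 between 2 vehicle libraries. Set against the vehicle libraries, Shh replicate 1 gave 2.20 to 2.67, replicate 3 gave 2.79 to 4.73 and replicate 2 gave 9.23 to 11.51. By this measure Shh replicate 1 was nearer to every vehicle library than to either other Shh library. Shh replicate 2 was the highest or lowest of the 6 libraries for 20 of the 34 tested members (58.8%), against 54.0% of all tested genes. Hepatocyte markers of the line were present in part, with *Alb* at a mean of 986 CPM in Shh and 1004 CPM in vehicle. *Afp* was at 384 CPM in Shh and 395 CPM in vehicle, *Hnf4a* at 198 and 193 CPM and *Apob* at 37.5 and 35.7 CPM. *Trf* was at 550 CPM in Shh and 593 CPM in vehicle, without overlap (unadjusted p = 0.0171, adjusted p = 0.469 from edgeR). *Ttr* and *Gpc3* were under 1 CPM. *Apoa1* was at 2.79 CPM in Shh and 3.23 CPM in vehicle, and *Apoa2* at 2.15 and 2.27 CPM. The 11 markers summed to 5316 to 5638 CPM in Shh and 5639 to 5698 CPM in vehicle. Much of that sum came from the keratin genes *Krt18* (2173 CPM in Shh and 2260 CPM in vehicle) and *Krt8* (1148 and 1186 CPM). The 5 cholangiocyte markers summed to 713.7 to 754.8 CPM in Shh and 727.4 to 753.7 CPM in vehicle. The highest of them was *Spp1*, at 487 CPM in Shh and 502 CPM in vehicle. The 8 genes of the Hedgehog response summed to 230.4 to 233.2 CPM in Shh and 224.4 to 228.4 CPM in vehicle, and none of the 4 that could be tested, *Gli1* and *Ptch1* among them, reached an unadjusted p under 0.05.

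No member passed the test. With edgeR's quasi-likelihood test and Benjamini-Hochberg adjustment over all tested genes, 0 of 34 members had an adjusted p under 0.05, as did 0 of all 12286 genes (0%), and DESeq2 called 0 as well. At an unadjusted p under 0.05, 4 members were higher with Shh (*Otud4*, *Senp6*, *Otud6b* and *Senp1*; 11.8% of those tested), against 4.83% of all tested genes. At the same threshold 2 members were lower (*Mpnd* and *Senp8*; 5.88%), against 5.56% of all tested genes. DESeq2 put 3 members higher and 1 lower at that unadjusted p, against 2.76% and 3.87% of all tested genes in those directions. The median log2 fold change over the tested members was 0.0032, with 17 above 0 and 17 below, and over all tested genes it was 0.0028. In bulk RNA, a change in the number of cells that express a gene and a change in the RNA per cell cannot be told apart.

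The level per length of a member, given as FPKM (fragments scaled by transcript length and by library total), ran over more than 3 orders of magnitude. *Cops6*, a subunit of the COP9 signalosome, was the most abundant at a mean of 205 FPKM in Shh and 210.4 FPKM in vehicle. *Senp3*, the nucleolar SUMO protease, came next at 85.4 FPKM in Shh and 87.5 FPKM in vehicle, followed by *Cops5* at 80.8 FPKM in Shh and 82.1 FPKM in vehicle, and *Otub1* at 76.4 FPKM in Shh and 78.9 FPKM in vehicle. At the low end stood *Otud7a*, at 0.0467 FPKM in Shh and 0.0567 FPKM in vehicle. The 36 members together summed to 931.8 to 949.5 FPKM per Shh library and 935.8 to 952.6 FPKM per vehicle library, which overlap. Neighbours in this order could be close, as *Otulin* at 63.1 FPKM in Shh and 63.05 FPKM in vehicle and *Uchl5* at 60.8 FPKM in Shh and 61.2 FPKM in vehicle.

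**Figure D1:**
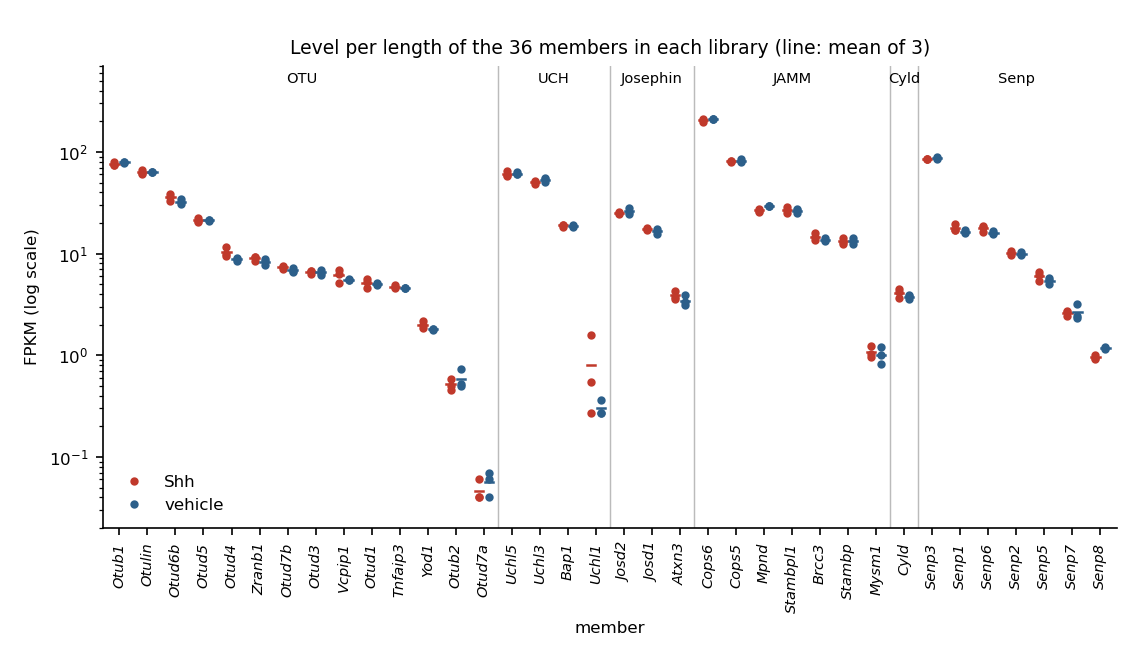
FPKM (log scale) of each of the 36 members, by family and from high to low, with a point per library, Shh left of vehicle, and a line at the mean of 3. *Cops6* is highest at 205 FPKM in Shh and 210.4 FPKM in vehicle, and *Uchl1* shows the widest scatter, set by a single Shh library.

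Among the OTU proteases, 13 of 14 were tested, 9 with a log2 fold change above 0 and 4 below, and the median was 0.04. *Otud4*, a DUB that also serves as a scaffold for other DUBs in DNA alkylation repair, had 69.2, 83.2 and 72.5 CPM in Shh, against 65.6, 62.4 and 65.5 CPM in vehicle. All Shh libraries were above all vehicle libraries, with Shh replicate 2 far above the other two. This gave a log2 fold change of 0.22 (standard error 0.064, unadjusted p = 0.00524, adjusted p = 0.469 from edgeR's quasi-likelihood test). Without Shh replicate 2 it was 0.13, and without Shh replicate 1 it was 0.27 with an adjusted p of 0.0481, the only member called in any fit run here, in a fit where 110 of 12391 genes (0.888%) were called higher.

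*Otud6b*, whose product acts on the proteasome and on protein synthesis, had 101, 115 and 109 CPM in Shh and 95.1, 97.99 and 105 CPM in vehicle. Shh replicate 1 lay below vehicle replicate 3, so the groups overlapped. Its log2 fold change was 0.12 (standard error 0.055, unadjusted p = 0.0421, adjusted p = 0.477 from edgeR), and without Shh replicate 2 it was 0.08. *Yod1*, which works with the ATPase VCP in degradation at the endoplasmic reticulum, had 7.13, 7.32 and 8.15 CPM in Shh and 6.94, 6.83 and 6.93 CPM in vehicle. Its groups did not overlap, yet the log2 fold change of 0.13 had a standard error of 0.098 and an unadjusted p of 0.216 from edgeR, and without Shh replicate 3 it was 0.07.

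*Otub1*, which can also block ubiquitin transfer by binding E2 enzymes without cutting, was the OTU gene with the highest level per length. It had 131, 119 and 119.8 CPM in Shh and 129.9, 131 and 128.5 CPM in vehicle. Shh replicates 2 and 3 were below all vehicle libraries and Shh replicate 1 was above them, and the log2 fold change of -0.07 had a 95% interval of -0.17 to 0.03. It was -0.12 without Shh replicate 1 and -0.05 without Shh replicate 2. The other OTU genes had intervals that include 0. For *Otulin*, which cuts linear ubiquitin chains, the interval was -0.13 to 0.08, and for *Tnfaip3* (A20), an inhibitor of NF-kB signaling, it was -0.12 to 0.15. *Otud5* had -0.13 to 0.05, *Otud1* -0.15 to 0.16, *Otud3* -0.10 to 0.18, *Zranb1* -0.08 to 0.16 and *Vcpip1*, another partner of VCP, -0.07 to 0.28. *Vcpip1* was uneven within Shh, at 49.9 CPM in replicate 1 and 65.3 CPM in replicate 2, against 53.6 to 55.3 CPM in vehicle. *Otud7b*, also known as Cezanne, averaged 58.3 ± 1.22 CPM in Shh and 55.6 ± 2.31 CPM in vehicle (SD, n = 3 each). *Otub2* was low, at 1.29 to 1.59 CPM in Shh and 1.395 to 2.03 CPM in vehicle, and its interval of -0.72 to 0.33 reaches further below 0 than that of any other tested member. *Otud7a* had 5.05, 5.06 and 3 estimated counts in Shh and 6.52, 8.67 and 4.85 in vehicle, too few for the filter.

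**Figure D2:**
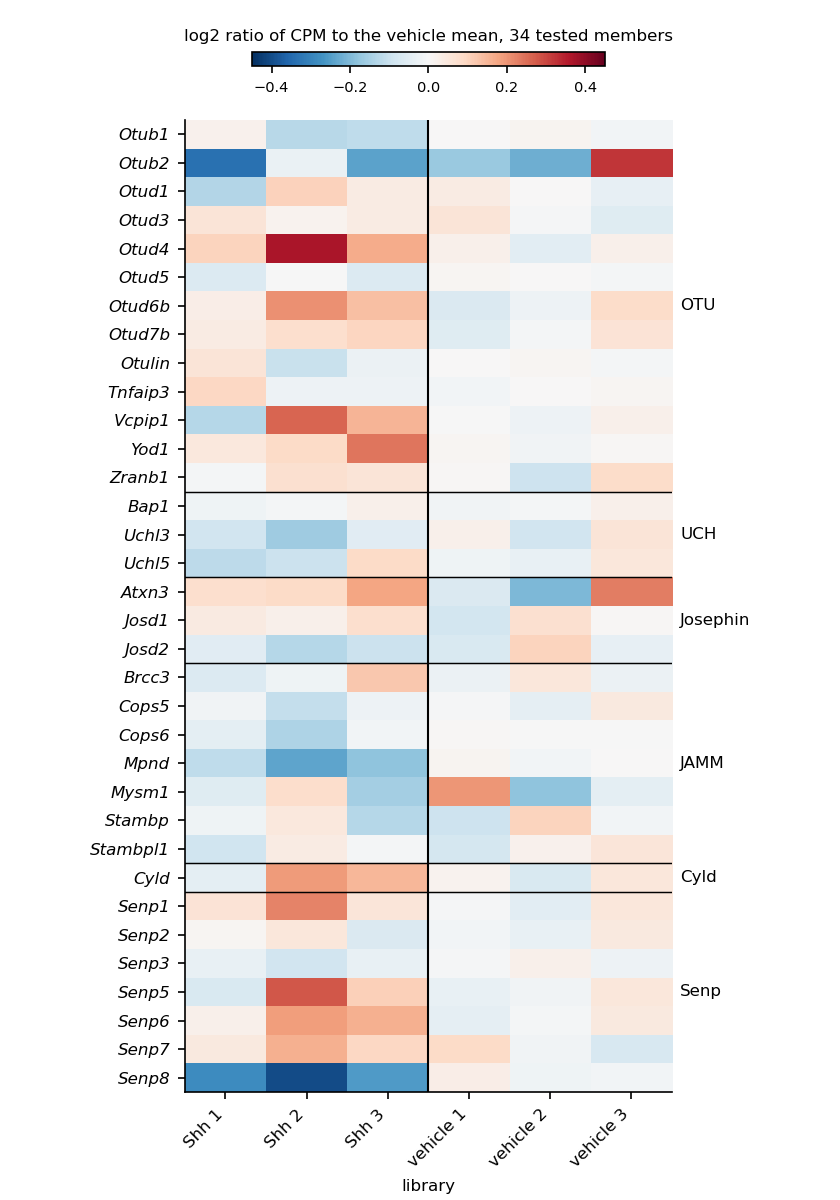
Log2 ratio of each library's CPM to the vehicle mean of the same gene (color), for the 34 tested members in rows by family and the libraries in columns, Shh left of vehicle. *Senp8* and *Mpnd* are below the vehicle mean and *Otud4* above it in all 3 Shh libraries. Other rows, such as *Otud6b* and *Cops6*, also have all 3 Shh libraries on the same side, and several have Shh libraries on both sides of it.

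All 3 tested UCH genes had log2 fold changes below 0, with a median of -0.04. *Uchl5*, the UCH enzyme of the proteasome and of the INO80 complex, had 84.2, 85.3 and 97.01 CPM in Shh and 90.0, 89.2 and 94.7 CPM in vehicle, and its Shh libraries lay on both sides of vehicle. Between the groups its log2 fold change was -0.04, with a 95% interval of -0.16 to 0.08, and it was -0.11 without Shh replicate 3. *Bap1*, a tumor suppressor that removes ubiquitin from histone H2A, was nearly level at 63.1 ± 1.01 CPM in Shh and 63.2 ± 0.951 CPM in vehicle (SD, n = 3 each), with an interval of -0.10 to 0.09. *Uchl3*, an enzyme for small adducts of ubiquitin and NEDD8, had 42.6 to 45.9 CPM in Shh and 44.8 to 49.6 CPM in vehicle, with an interval of -0.22 to 0.02.

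*Uchl1*, best known from neurons, did not pass the filter. It had 35, 12 and 6 counts in Shh and 6, 6 and 8 in vehicle, so that 1 library held most of its reads in Shh. The same library, Shh replicate 1, had the highest sum of the 7 stellate cell and fibroblast markers, at 63.9 CPM against 19.5 and 20.1 CPM in the other Shh libraries and 23.6 to 41 CPM in vehicle, with *Col1a1*, *Col3a1*, *Acta2* and *Des* all highest there. Its sum of the 6 macrophage markers was 26.7 CPM, against 15.5 and 16 CPM in the other Shh libraries and 19.2 to 20.3 CPM in vehicle. Of the defining markers, *Adgre1* for macrophages was also highest in that library, at 0.446 CPM, against 0.0482 and 0.0491 CPM in the other Shh libraries and 0.0498 to 0.148 CPM in vehicle, and *Lrat* for stellate cells was at 0 to 0.0498 CPM. The part of these markers in the *Uchl1* reads was not tested.

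Of the Josephins, *Josd2* had the highest level per length. It had 21.9, 20.8 and 21.3 CPM in Shh and 21.7, 24.4 and 22.2 CPM in vehicle, with overlap, and a log2 fold change of -0.09 with a 95% interval of -0.23 to 0.05 (-0.04 without vehicle replicate 2). *Josd1* averaged 57.9 ± 1.06 CPM in Shh and 56.1 ± 3.00 CPM in vehicle (SD, n = 3 each), with an interval of -0.06 to 0.16. *Atxn3*, the ataxin 3 gene in which an expanded repeat causes a form of spinocerebellar ataxia in humans, had 12.3 to 13.2 CPM in Shh and 10.1 to 13.7 CPM in vehicle, with an interval of -0.11 to 0.34.

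In the JAMM group, 6 of 7 tested genes had log2 fold changes below 0, and the median was -0.04. *Mpnd*, an MPN domain gene, had the smallest p of all members. It had 45.5, 41.8 and 43.4 CPM in Shh, against 49.7, 48.8 and 49.3 CPM in vehicle, and every Shh library was below every vehicle library. The log2 fold change was -0.18 (standard error 0.048, unadjusted p = 0.00321, adjusted p = 0.469 from edgeR), and leaving out 1 library at a time gave -0.21 to -0.15. The SD was 1.86 CPM over the Shh libraries and 0.445 CPM over the vehicle libraries.

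*Cops6* and *Cops5* belong to the COP9 signalosome, which removes NEDD8 from cullins, *Cops5* being the catalytic subunit and *Cops6* its MPN partner without catalysis. *Cops6* had 215.3, 201.7 and 220.1 CPM in Shh and 222.7, 221.4 and 221.7 CPM in vehicle. The groups did not overlap, but Shh replicate 3 missed the vehicle range by little, and the log2 fold change was -0.06 with a 95% interval of -0.16 to 0.03 (-0.03 without Shh replicate 2). *Cops5* averaged 134.6 ± 4.77 CPM in Shh and 139.2 ± 4.06 CPM in vehicle (SD, n = 3 each), with an interval of -0.14 to 0.05. *Brcc3*, which cuts chains in the BRCA1-A and BRISC complexes, had an interval of -0.13 to 0.16. *Stambp* (AMSH), an endosomal DUB, had -0.18 to 0.12, and its relative *Stambpl1* had -0.13 to 0.10. *Mysm1*, a histone H2A DUB, was measured with less precision at 5.79 to 6.79 CPM in Shh and 5.68 to 7.39 CPM in vehicle, and its interval was -0.31 to 0.23.

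*Cyld*, a tumor suppressor that cuts linear and lysine-linked chains in NF-kB signaling, had 29.8, 34.98 and 33.96 CPM in Shh and 30.9, 29.2 and 31.8 CPM in vehicle. Shh replicates 2 and 3 were above vehicle and Shh replicate 1 was not. This amounted to a log2 fold change of 0.10 with a 95% interval of -0.04 to 0.25. Without Shh replicate 1 it was 0.17, and without Shh replicate 2 it was 0.06.

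Of the Senp genes, 4 had log2 fold changes above 0 and 3 below, with a median of 0.10. *Senp6*, which trims chains of SUMO2 and SUMO3, had 80.7, 90.3 and 88.5 CPM in Shh and 77.2, 78.9 and 81.8 CPM in vehicle. Shh replicate 1 lay within the vehicle range. The log2 fold change was 0.13 (standard error 0.052, unadjusted p = 0.0314, adjusted p = 0.469 from edgeR).

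*Senp1*, which both matures and removes SUMO, had 114.8, 128.2 and 114.1 CPM in Shh and 109.5, 106.4 and 114.0 CPM in vehicle. The groups did not overlap, although Shh replicate 3 and vehicle replicate 3 were almost equal. The log2 fold change was 0.12 (standard error 0.052, unadjusted p = 0.0481, adjusted p = 0.479 from edgeR), and without Shh replicate 2 it was 0.06.

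*Senp8*, the NEDD8 protease, had the largest log2 fold change in size among the 34 tested members and one of their lowest levels. It had 73, 69 and 75 counts in Shh, or 3.61, 3.33 and 3.68 CPM, against 90, 87 and 88 counts in vehicle, or 4.49, 4.33 and 4.35 CPM. All Shh libraries were below all vehicle libraries. The log2 fold change was -0.31 (standard error 0.130, unadjusted p = 0.0337, adjusted p = 0.469 from edgeR), with a 95% interval of -0.59 to -0.03, and DESeq2 gave an unadjusted p of 0.134.

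*Senp3* had 194.1, 187.2 and 193.9 CPM in Shh and 198.1, 202.1 and 195.7 CPM in vehicle. The groups did not overlap, and the log2 fold change of -0.05 had a 95% interval of -0.13 to 0.03. *Senp2* averaged 44.6 ± 1.81 CPM in Shh and 44.7 ± 1.30 CPM in vehicle (SD, n = 3 each), with an interval of -0.11 to 0.11, and *Senp5* had an interval of -0.06 to 0.28. *Senp7*, the other protease for SUMO chains, averaged 10.6 CPM in Shh and 9.88 CPM in vehicle, while its FPKM averaged 2.60 in Shh and 2.65 in vehicle. The scales thus put it on opposite sides, with vehicle replicate 1 at 3.18 FPKM and the other 5 libraries at 2.34 to 2.71 FPKM.

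In all, 3 tested members had every Shh library above every vehicle library (*Otud4*, *Yod1* and *Senp1*; 8.82%), against 6.79% of all tested genes. A further 4 had every Shh library below every vehicle library (*Mpnd*, *Cops6*, *Senp3* and *Senp8*; 11.8%), against 8.67% of all tested genes. The 95% interval lay wholly within 0.2 of 0 on the log2 scale for 18 of the 34 tested members and for 5141 of all 12286 tested genes. The 17 members that the study placed in its DUB heat map had a median log2 fold change of -0.0013, and the 17 tested members outside it had 0.02. How the heat map genes were chosen is not stated in the sources used here. The paper counts *Otud4* and *Otud6b* among DUBs significantly increased by Shh in its RNA-seq of these cells, and its methods give no model for that comparison. Neither passed the adjusted threshold in edgeR with all libraries. In mouse liver the paper reports that, of those DUBs, only *Usp31* rose on its steatohepatitis diet.

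**Figure D3:**
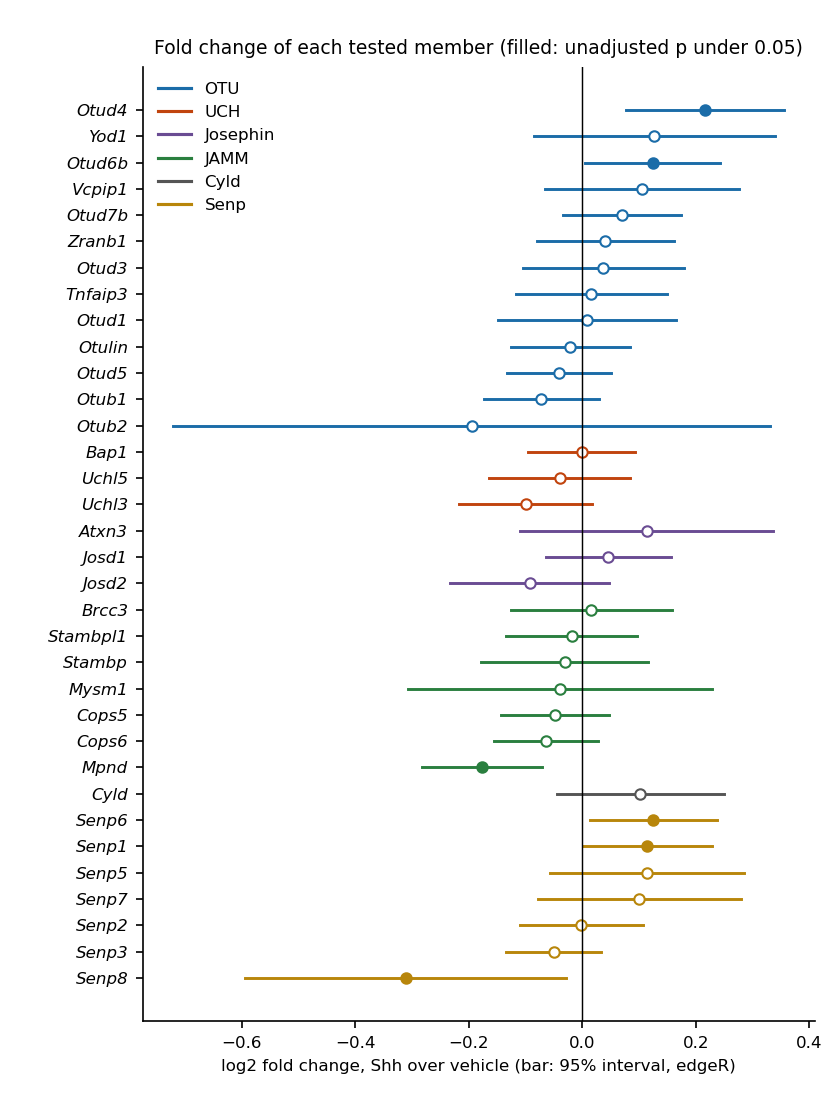
Log2 fold change of Shh over vehicle for the 34 tested members, by family, with the 95% interval from edgeR as a bar and filled points at an unadjusted p under 0.05. The 6 filled points are *Otud4*, *Otud6b*, *Mpnd*, *Senp6*, *Senp1* and *Senp8*, and *Otub2* has the widest interval, from -0.72 to 0.33.

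The members' fold changes varied with transcript length. The length behind each gene's counts, recovered from the deposited counts and FPKM, ran from 855 bases for *Josd2* to 9696 bases for *Vcpip1* among the members, with a median of 3351 against 2696 over all tested genes of known length. Across the 34 members the Spearman correlation of length with log2 fold change was 0.64, and across 11158 genes it was 0.55. Genes are not independent replicates, and these points share the same 6 libraries, so no p is given. In single Shh libraries, set against the vehicle mean, the members' correlation with length was 0.22 in replicate 1, 0.77 in replicate 2 and 0.41 in replicate 3. The families differ in length in the same direction, with medians of 1474 bases for UCH and 1679 for JAMM, and 3798 for OTU and 4442 for Senp. With the genes split by length into 5 classes of equal size, the median log2 fold change in the class of the longest transcripts was 0.07 over all genes and 0.11 over the 9 members there, *Otud4*, *Cyld*, *Senp1* and *Senp6* among them. In the class of the shortest it was -0.09 over all genes and -0.06 over the 5 members there.

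**Figure D4:**
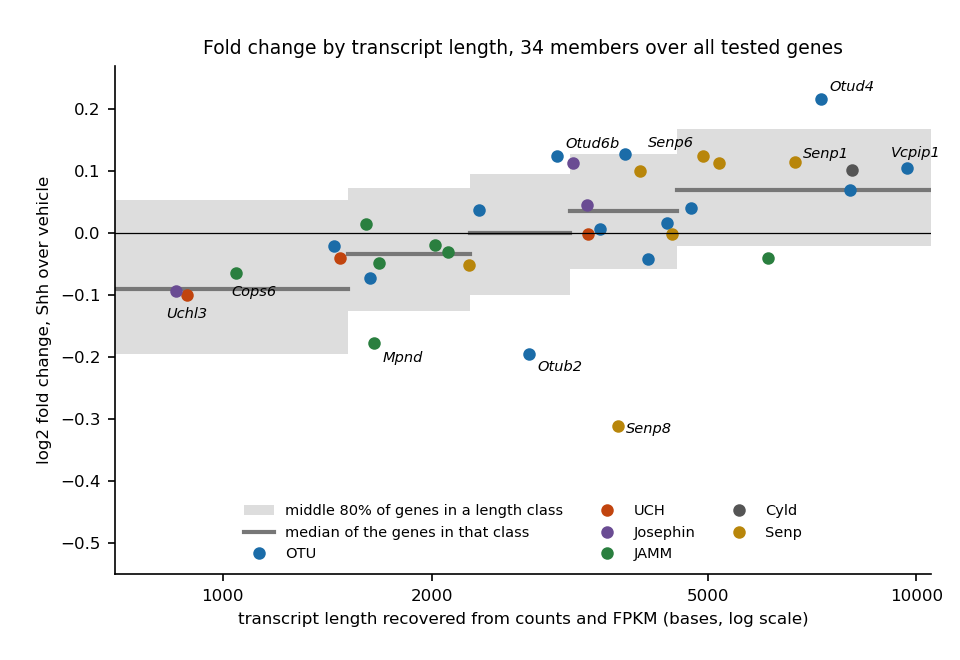
Log2 fold change of Shh over vehicle against recovered transcript length (bases, log scale) for the 34 tested members, colored by family, over the median (line) and the middle 80% (gray) of all tested genes in each of 5 length classes. *Otud4*, *Otud6b*, *Mpnd*, *Otub2*, *Senp8* and *Mysm1* are the 6 outside the gray band of their class, and the other 28 lie within it.

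An offset for length was fitted to the trend with length in these same libraries, so a fall in the correlation with length is built in. With this offset in the model, the correlation across members was 0.08, and the median size of a member's log2 fold change was 0.03, against 0.07 without it. Values of 23 of the 34 members came closer to 0, as did those of 7110 of all 11158 genes with a length. *Mpnd* had a log2 fold change of -0.14 (unadjusted p = 0.00549) and *Otud4* one of 0.14 (unadjusted p = 0.00832), both with an adjusted p of 0.791 from edgeR. *Senp8* was at -0.34 and *Otud6b* at 0.11 with the offset, close to their values without it. *Senp6* was at 0.07 and *Senp1* at 0.04, with unadjusted p of 0.117 and 0.321 from edgeR. *Cyld* was at 0.02, *Otub1* at -0.03 and *Senp3* at -0.04, while *Cops6* and *Uchl5* turned to 0.01. *Otud5* was at -0.08 with an unadjusted p of 0.0431 from edgeR, a member not under that threshold without the offset. The family medians were -0.01 for OTU, UCH and JAMM and 0.04 for Senp. The cause of the length relation was not tested.

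**Figure D5:**
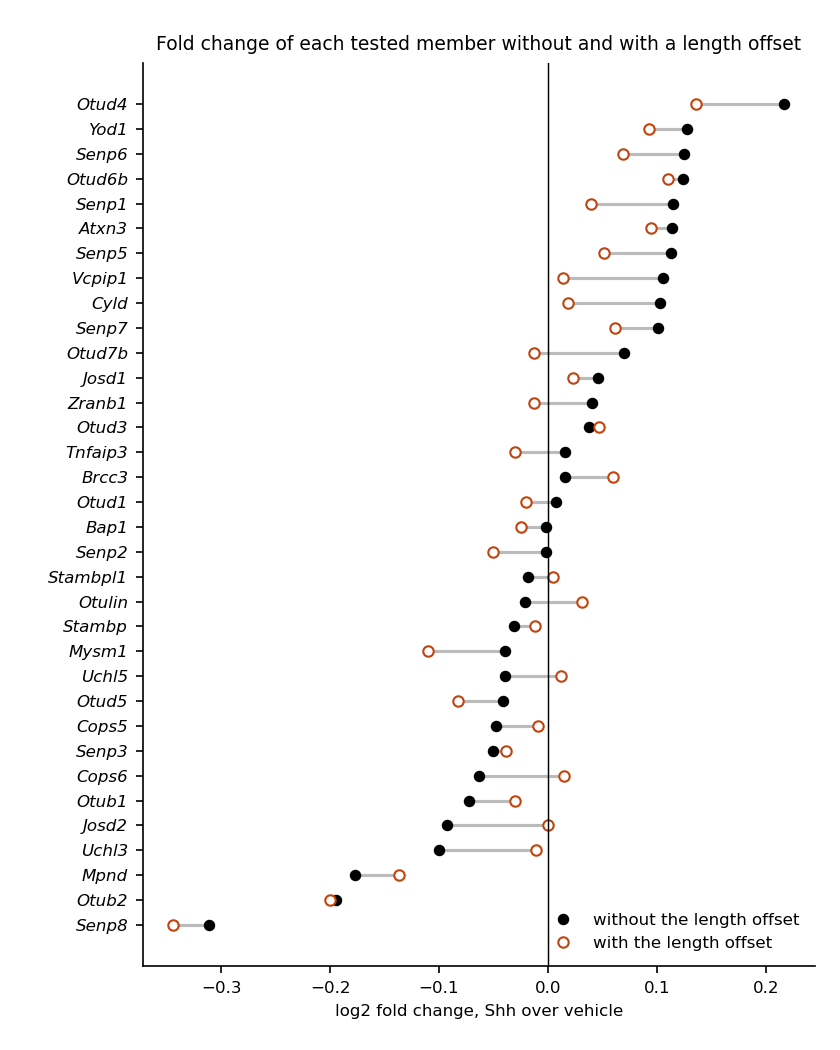
Log2 fold change of Shh over vehicle for the 34 tested members, without (filled) and with (open) an offset for transcript length. *Otud4* comes closer to 0 (0.22 without and 0.14 with the offset), *Mpnd* is at -0.18 without and -0.14 with it, and *Senp8* moves away from 0, at -0.31 without and -0.34 with it.

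The genes that work with these proteases were taken as 10 lists, in none of which any gene passed the adjusted threshold in edgeR. At an unadjusted p under 0.05 from edgeR, 4.83% of all tested genes were higher and 5.56% lower, and the counts of these short lists are read beside those shares. Of the 20 genes of the SUMO cycle, 2 were higher and 2 lower at that threshold, with a median log2 fold change of 0.02. *Rnf111* (Arkadia), a ubiquitin ligase that reads SUMO, had 22.6, 29.1 and 24.1 CPM in Shh and 22.4, 20.2 and 20.8 CPM in vehicle, without overlap and with a log2 fold change of 0.26, which was 0.14 without Shh replicate 2 (unadjusted p = 0.0636 from edgeR). *Rnf4*, a ligase of the same kind, had a log2 fold change of 0.11, and the SUMO ligase gene *Nsmce2* had -0.15. The NF-kB and linear ubiquitin list, partners of *Otulin*, *Cyld* and *Tnfaip3*, had 2 of 19 higher and 0 lower at that threshold, *Traf3* at 0.15 and *Tax1bp1* at 0.13, with a list median of 0.03. With the length offset *Traf3* was at 0.07 (unadjusted p = 0.146 from edgeR) and *Nsmce2* at -0.07 (unadjusted p = 0.102), while *Rnf111* was at 0.21, *Rnf4* at 0.10 and *Tax1bp1* at 0.11. The list of BRCC36 complexes, around *Brcc3*, had 1 of 10 higher (*Bard1*, 0.22, or 0.16 with the offset) and 1 lower (*Babam2*, -0.17, or -0.11 with it), with a median of -0.01.

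None of the 15 genes of the COP9 signalosome and neddylation, the partners of *Cops5*, *Cops6* and *Senp8*, was under the unadjusted threshold in either direction, 10 were below 0, and the median was -0.05. Its gene with the smallest p was the NEDD8 E2 enzyme gene *Ube2m*, at 250 ± 12.9 CPM in Shh and 268 ± 6.57 CPM in vehicle (SD, n = 3 each), with a log2 fold change of -0.10, or -0.03 with the length offset. The 6 ubiquitin precursor and E1 genes had a median of -0.08. The partner lists of *Bap1* (9 tested, median 0.06, or -0.01 with the length offset), of VCP and degradation at the endoplasmic reticulum (16, 0.01), of *Stambp* at endosomes (9, 0.02) and of *Uchl5* (7, 0.03) had no gene under the unadjusted threshold. The same held for 11 other tested DUBs and relatives of the same or neighbouring folds, with a median of -0.01.

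The study was also concerned with the clock factor Bmal1, which binds the E-box CACGTG together with its partner Clock, so this motif was searched in promoters, together with GACCACCCA, the core sequence bound by Gli factors. Promoters were the RefSeq windows of GRCm38.p6, with 250 bases before and 50 after a gene's start, and both strands were read (CACGTG reads the same on both). Of the 36 members 32 had at least 1 such window, and *Otud6b*, *Otud7b*, *Vcpip1* and *Cops5* had none. CACGTG stood in the windows of 7 of the 32 members (21.9%), against 11.5% of the tested genes with a window and 8.09% of all genes with one. GACCACCCA stood in none of the members' windows and in those of 0.254% of the tested genes. A match is a description of the letters and not of binding. The following stretches show the E-box (capitals) of each of the 7 members with 10 bases on each side, 5′ to 3′ on the gene's strand, and *Atxn3* has it at 2 places.
Atxn3, 19 bases before the start: tggcgagaggCACGTGgctagggcgg
Atxn3, 90 bases before the start: ccgcccaggtCACGTGtcccgtgctc
Bap1: ccgccctccgCACGTGcgcgccctcg
Otud1: cctgtgggacCACGTGacgcggccgc
Otud3: gagctaccacCACGTGacctggctgc
Senp8: cccgcctccgCACGTGacgctgctgg
Stambpl1: ttttttgcagCACGTGggaagctgtg
Tnfaip3: ccacgcgggtCACGTGactggaattt

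In GRCm38.p6 these stretches are at chr12:101958247-101958272 (- strand, *Atxn3*, 19 bases before the start), chr12:101958318-101958343 (- strand, *Atxn3*, 90 bases before the start), chr14:31251336-31251361 (+ strand, *Bap1*, 143 bases before the start), chr2:19657667-19657692 (+ strand, *Otud1*, 54 bases before the start), chr4:138913986-138914011 (- strand, *Otud3*, 33 bases before the start), chr9:59750816-59750841 (- strand, *Senp8*, 182 bases before the start), chr19:34192145-34192170 (+ strand, *Stambpl1*, 74 bases before the start), chr10:19015428-19015453 (- strand, *Tnfaip3*, 33 bases before the start). Of the 7 members, *Senp8* alone was under the unadjusted threshold, and the others had 95% intervals that include 0.

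The full windows of the 2 members with the smallest p, *Otud4* and *Mpnd*, and of *Senp8*, the tested member with the largest fold change in size, are shown to set a promoter with the E-box (capitals) beside those without it.
Otud4: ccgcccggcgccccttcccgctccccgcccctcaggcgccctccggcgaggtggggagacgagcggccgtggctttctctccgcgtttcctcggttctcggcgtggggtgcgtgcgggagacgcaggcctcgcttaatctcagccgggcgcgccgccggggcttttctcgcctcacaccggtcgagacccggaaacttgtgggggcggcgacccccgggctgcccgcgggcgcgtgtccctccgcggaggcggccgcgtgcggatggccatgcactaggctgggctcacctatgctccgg
Mpnd: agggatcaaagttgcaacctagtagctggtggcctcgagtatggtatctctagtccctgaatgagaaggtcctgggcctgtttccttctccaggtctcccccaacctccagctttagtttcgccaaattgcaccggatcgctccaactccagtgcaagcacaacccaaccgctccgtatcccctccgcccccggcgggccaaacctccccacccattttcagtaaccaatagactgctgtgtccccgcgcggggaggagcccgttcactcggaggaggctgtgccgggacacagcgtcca
Senp8: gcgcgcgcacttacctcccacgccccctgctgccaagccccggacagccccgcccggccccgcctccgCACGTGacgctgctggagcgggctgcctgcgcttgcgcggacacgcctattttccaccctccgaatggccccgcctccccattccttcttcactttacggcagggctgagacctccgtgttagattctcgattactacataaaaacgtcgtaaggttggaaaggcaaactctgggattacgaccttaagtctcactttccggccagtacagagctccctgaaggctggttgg

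They lie at chr8:79639426-79639725 (+ strand), chr17:56008951-56009250 (+ strand) and chr9:59750600-59750899 (- strand) of GRCm38.p6. The *Otud4* window is 74.7% G or C with 43 CpG, that of *Mpnd* 59.3% with 16 and that of *Senp8* 61.3% with 25.

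In the GENCODE M21 annotation, exons of some members overlap exons of a gene on the other strand, and whether the counting used strand is not given in the sources used here. *Mpnd* shares 1.78% of its exon bases with *Sh3gl1*, *Cops6* 2.53% with *Mcm7*, *Yod1* 2.51% with *Pfkfb2*, *Cops5* 4.83% with *Cspp1* and *Senp5* 1.80% with *Ncbp2*. *Senp1* shares 3.89% with an antisense gene and 0.152% with *Pfkm*. *Senp6* shares 1.54% with an antisense gene, *Vcpip1* 7.54%, *Stambp* 1.3%, and *Uchl1* 18.1% with *Uchl1os*. *Zranb1* shares 1.02% with a noncoding transcript. No such overlap was found for *Otud4*, *Otud6b* or *Senp8*.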

How the data were processed

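Poly(A) RNA of Hepa 1–6 cells was sequenced from 3 Shh and 3 vehicle libraries. For each gene the authors deposited estimated counts, with 36.4% of those above 0 not whole, and FPKM values scaled by transcript length and library total. Bowtie2 appears in the submitters' processing notes. Its version, the genome build, the annotation and the counting tool were not given in the sources used here. Liver exosomes are mentioned in the series' design text, but sample labels name the cell line and were followed. Since nothing in the labels makes the libraries of a group separate cultures, the p-values describe spread among libraries that may be technical.

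After rounding, the counts were fitted with the quasi-likelihood test of edgeR 4.0.16 under R 4.3.3. Normalization was by TMM, genes needed at least 10 counts in enough libraries and 15 in total, and Benjamini-Hochberg adjustment ran over all tested genes at 0.05. Lengths were recovered from counts and FPKM where the FPKM was at least 0.5. A further 6 per-sample columns and the averages were not used. The members, lists and tests were chosen with earlier results of these data known. Each member was named. Values per library were given for members at an unadjusted p under 0.05, members without overlap at 5 CPM or more, *Otud4* and *Otud6b*, the member with the highest level per length in each family, and members not tested. Of each partner list up to 3 genes with the smallest p were named, apart from a few not reported here. The alternatives tried were upper-quartile factors, DESeq2 1.42.0, other filters, the replicate number as a block, a length offset (per library, a spline of 5 degrees of freedom), both together, leaving out each library, and limma 3.58.1 on log2(FPKM + 0.1). Leaving out Shh replicate 1 or 2 under the length offset was chosen after seeing the data. The tests were checked on simulated counts.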

Additional observations from a re-analysis of the deposited data

How the results depend on the processing

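No gene passed the threshold over all genes. The count was 1 without a filter, 1 with the length offset, 7 with the replicate block and the length offset, 0 with the replicate block alone, 0 to 195 when 1 library was left out (195 without Shh replicate 1, 3 without Shh replicate 2, 1 without Shh replicate 3, 2 without vehicle replicate 3), and 10 or 3 with the length offset and without Shh replicate 1 or 2, fits chosen after seeing the data. The count of members was 0 in the same fits, in DESeq2 and in limma on log2 FPKM, except 1 (*Otud4*) without Shh replicate 1. The 6 members at an unadjusted p under 0.05 (17.6% of members against 10.4% of all genes) became 2 to 10 when 1 library was left out. Without Shh replicate 1 they were 10 (29.4% of members against 21.1% of all genes). Without Shh replicate 2 they were 2 (5.88% against 6.2%), and without vehicle replicate 1 also 2 (5.71% against 4.89%). Without vehicle replicate 2 they were 3 (8.57% against 4.89%). With the length offset and without Shh replicate 2 they were 2 (5.88% against 4.32%). The median over members stayed between -0.0025 and 0.02 in edgeR and DESeq2 and was 0.03 in limma on log2 FPKM, where that of all genes was 0.02. Of the 13 members whose fold change is given, 3 turned direction. With the length offset, with the block as well, and without Shh replicate 1 or 2, *Cops6* was at 0.015, 0.014, 0.0397 and 0.0061, and *Uchl5* at 0.012, 0.0103, 0.0747 and 0.011. *Josd2* was at 0.0015 with the block and the offset and at 0.017 with the offset and without Shh replicate 1. *Hcfc1*, a partner of *Bap1*, was at 0.08 and turned to -0.0054, -0.0055, -0.032 and -0.00078 in those 4 fits. Of the other 21 tested members, 14 turned direction in at least 1 of 15 alternatives. Same-numbered libraries showed little shared deviation (r of -0.04, -0.05 and 0.10). With 3 libraries per group this cannot exclude a pairing, and the fits with the replicate block are given above. Depth limits *Otub2*, *Otud7a*, *Uchl1* and *Senp8* most.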
